A study of Mus musculus with 4 samples.

Results

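The 10 immunoglobulin constant region and J chain genes described here were followed across the cells of dystrophic and healthy mouse muscle: Ighm, Ighd, Igha, Ighg2b, Ighg2c, Igkc, Iglc1, Iglc2, Iglc3 and Jchain. They were taken by symbol, and each symbol matched 1 gene, so that 10 of 32285 genes in the deposited tables were followed. Mononuclear cells had been isolated from 2 muscles, quadriceps and diaphragm, at 14 weeks of age, in wild-type animals (WT) and in the dystrophin-deficient line mdx5cv, which is used as a mouse model of Duchenne muscular dystrophy. The cells were cryopreserved, thawed and sequenced with a droplet method that counts unique molecular identifiers (UMIs) at the 3′ end of transcripts. Each of the 4 combinations of muscle and genotype was 1 library. How many animals gave each library is not stated, and the comparisons below have no replicate check. All intervals are 95% intervals that cover counting error only.

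An antibody is built from heavy and light chains, and each chain joins a variable region to a constant region. The heavy chain constant gene sets the class: Ighm and Ighd give the IgM and IgD that naive B cells carry together by alternative splicing, whereas Igha, Ighg2b and Ighg2c follow only after class switching. A B cell normally uses the kappa light chain (Igkc) or a lambda light chain (Iglc1, Iglc2 or Iglc3), not both. Plasma cells secrete antibody, and the J chain (Jchain) links IgM and IgA into their secreted polymers.

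Barcodes with at least 1000 UMIs, at least 500 genes and at most 15% mitochondrial UMIs were taken as cells. Quadriceps gave 4911 cells in WT and 8334 in mdx5cv, and diaphragm 7516 and 7402, with median depths from 2055 to 5328 UMIs and library totals from 18837891 to 62780685 UMIs. Between 5 and 17 cell barcodes were shared by any pair of libraries. A B cell was a barcode with at least 3 UMIs of Cd79a, Cd79b and Ms4a1 together, which encode the signalling partners of the B cell receptor and CD20. A plasma cell was a barcode with at least 20 Jchain UMIs, and such barcodes were left out of the B cells. The other classes come from clusters named by marker genes and are written "-like". The Ig genes took no part in the clustering. Cells of B-like clusters that fell below the B cell threshold were set apart. They numbered 1 in quadriceps and 21 in diaphragm of WT, and 0 and 15 in mdx5cv. Values for cells neither B nor plasma leave them out.

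Plasma cell barcodes recurred with Ig UMIs in other libraries. The 10 plasma cells were found in the 2 diaphragm libraries, and the same 10 barcodes held 5 to 34 UMIs each in WT quadriceps, of which 101 of 146 (69.2%) were from the 10 genes. In mdx5cv quadriceps 9 of the 10 barcodes held such UMIs, 63 of 92 in all. The 7 plasma barcodes of mdx5cv diaphragm held 75 member UMIs in WT diaphragm, and the 3 of WT diaphragm held 17 in mdx5cv diaphragm. These are few beside the diaphragm totals of 49912 and 118409, but not beside those of the empty droplets of quadriceps, and the values for quadriceps droplets are therefore given with and without shared barcodes. Among the B cells, 4 of 257 in WT diaphragm and none in the other libraries had a barcode that was a cell elsewhere.

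All positions are on GRCm38 (mm10) from GENCODE M21, where all 10 gene identifiers were found. The 5 heavy chain genes lie on the minus strand of chromosome 12, with Ighm at 113418558-113422730, Ighd at 113406604-113416324, Ighg2b at 113302965-113307933, Ighg2c at 113285325-113288932 and Igha at 113254830-113260236. Igkc is at 70726435-70726966 on the plus strand of chromosome 6, and Jchain at 88519809-88527891 on the minus strand of chromosome 5. The lambda genes lie on the minus strand of chromosome 16, with Iglc1 at 19061618-19062071, Iglc3 at 19065230-19065681 and Iglc2 at 19198396-19200351. Jchain is annotated as a protein-coding gene and the other 9 as Ig constant genes.

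The count of each lambda gene rests on telling the 3 genes apart, whereas the kappa or lambda call uses their sum. The last 120 coding bases of each are therefore shown, as the annotated transcripts give them, with capitals at every position where the 3 genes are not all the same.
Iglc1 (chr16:19061755-19061874): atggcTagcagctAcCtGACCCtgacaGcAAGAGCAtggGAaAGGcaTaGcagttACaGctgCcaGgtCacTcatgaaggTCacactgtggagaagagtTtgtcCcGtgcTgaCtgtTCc
Iglc2 (chr16:19198539-19198658): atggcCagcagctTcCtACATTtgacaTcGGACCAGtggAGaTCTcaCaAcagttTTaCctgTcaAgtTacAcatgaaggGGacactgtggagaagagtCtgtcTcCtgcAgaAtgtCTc
Iglc3 (chr16:19065368-19065487): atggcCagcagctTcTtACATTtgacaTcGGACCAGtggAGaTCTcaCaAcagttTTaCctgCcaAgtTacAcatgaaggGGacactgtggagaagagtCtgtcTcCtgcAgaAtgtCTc
The transcripts of Iglc1, Iglc2 and Iglc3 run on for 137, 143 and 138 bases after those shown. Iglc1 differed from each of the others at 38 of the 120 bases, and Iglc2 from Iglc3 at 2. Over the whole transcripts the longest identical stretch was 79 bases between Iglc2 and Iglc3, 19 between Iglc1 and Iglc2, and 17 between Iglc1 and Iglc3. Between Ighg2b and Ighg2c it was 78 bases. Counts of Iglc2 against Iglc3, and of Ighg2b against Ighg2c, are uncertain to the extent that the counting could not place a read, and the lambda genes are mostly given as a sum.

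Plasma cells were few, and all of them carried Ighm, 1 of them beside Igha, with Igkc as their main light chain gene. There were 3 in WT diaphragm and 7 in mdx5cv diaphragm, and none in either quadriceps library. The threshold lay in a wide gap: the lowest Jchain counts inside it were 196 UMIs in WT and 251 in mdx5cv diaphragm, and the highest outside it were 4 in WT quadriceps, 2 in WT diaphragm, 1 in mdx5cv quadriceps and 11 in mdx5cv diaphragm. They are numbered below within each library from the lowest Jchain count to the highest.

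Jchain held 196, 438 and 933 UMIs in the WT plasma cells and 251, 591, 601, 616, 701, 1228 and 1495 in the mdx5cv plasma cells. Ighm, the mu constant gene, held 626, 1273 and 903 UMIs in WT and 371, 1444, 2265, 1831, 2468, 3541 and 3832 in mdx5cv cells. Both ranges overlapped between the genotypes. Igha, the alpha constant gene, was at 0 in 9 of the 10 cells and at 1537 UMIs in mdx5cv cell 2, which held 1444 Ighm UMIs as well and so had no single class. Ighd, Ighg2b and Ighg2c were at 0 in all 10.

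Igkc held 5444, 7834 and 9803 UMIs in the WT plasma cells and 3237, 8183, 8588, 6628, 7924, 8080 and 13155 in the mdx5cv cells. It made up 94.4% to 99.5% of light chain UMIs in each. The largest lambda count was 317 Iglc3 UMIs in mdx5cv cell 4; elsewhere Iglc3 ran from 0 to 13, Iglc1 from 6 to 44 and Iglc2 from 12 to 76 UMIs. There were 8.70, 6.15 and 10.9 Igkc UMIs per Ighm UMI in the WT cells, against 2.28 to 8.73 in the mdx5cv cells, so that 2 of the 3 WT values lay within the mdx5cv range. All Ig genes, variable genes and Jchain included, gave 33.3% of all UMIs in WT cell 1 and 59.3% to 78.5% in the other 9.

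**Figure D1:**
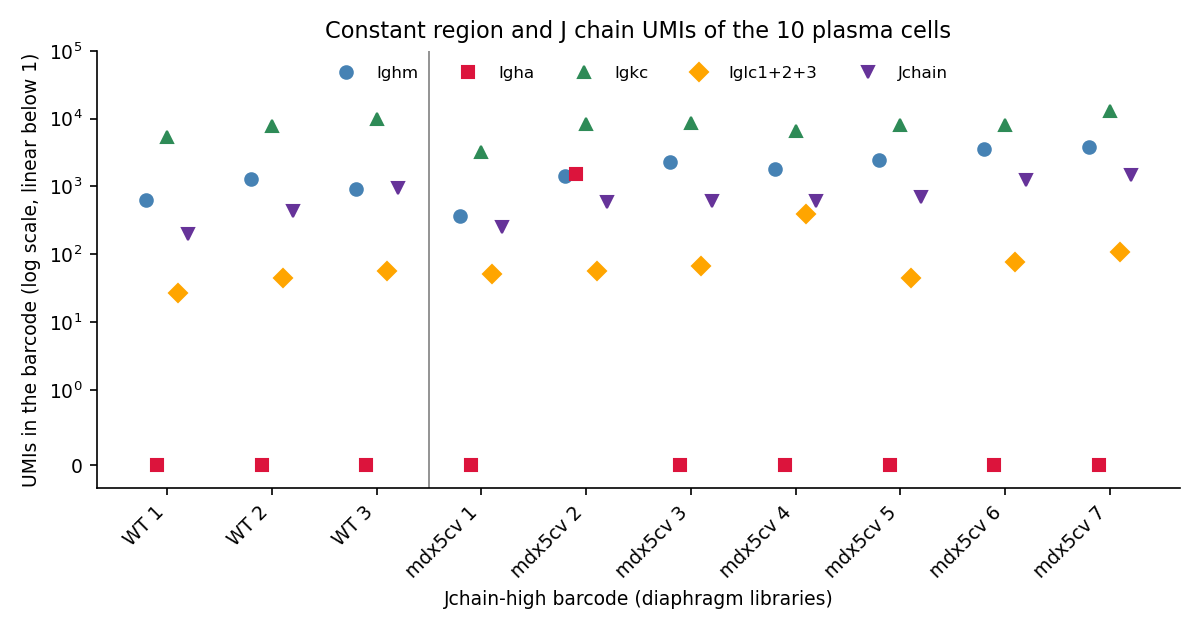
UMIs (log axis, linear below 1) of Ighm, Igha, Igkc, the summed lambda genes and Jchain in each of the 10 plasma cells, 3 from WT and 7 from mdx5cv diaphragm, in order of Jchain. Igkc is the highest gene in every cell, and Igha is above 0 in mdx5cv cell 2 alone, at 1537 UMIs.

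Kappa variable genes were counted too, and each plasma cell held at most 1 of them. The WT cells had Igkv4-91 (22 UMIs), Igkv3-2 (14) and Igkv12-89 (10). The mdx5cv cells had Igkv12-44 (12), Igkv2-137 (1), Igkv1-117 (13), Igkv1-117 (31), Igkv3-4 (14), Igkv4-91 (11) and Igkv3-2 (29). All other Igkv genes were at 0 UMIs in each of them. The cell with both Ighm and Igha, mdx5cv cell 2, held a single Igkv UMI and 124 UMIs of Iglv1, a lambda variable gene, although Igkc gave 8183 of its constant UMIs. Iglv1 was not limited to that cell. It held 38 and 5 UMIs in WT cells 1 and 2, and 1, 8, 49, 10 and 29 in mdx5cv cells 3 to 7. In WT cell 1 and mdx5cv cell 5 these exceeded the Igkv UMIs, and in mdx5cv cell 7 they equalled them. Of the secretory genes, Xbp1, the transcription factor of the secretory programme, and Derl3, of protein degradation in the endoplasmic reticulum, had a UMI in 10 of 10, Mzb1, a chaperone of IgM assembly, in 9, Sdc1, the surface marker CD138, in 8, Prdm1, the regulator of plasma cell fate, in 6 and Tnfrsf17, the survival receptor BCMA, in 5. WT cell 1 fell in a FAP-like cluster (FAPs, fibro/adipogenic progenitors, are the mesenchymal cells of muscle) and held 194 UMIs of Dcn and 17 of Col1a1. All 10 barcodes had doublet scores in the highest 6% of their library.

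The plasma cells held most of the Ig transcript of their libraries. In WT diaphragm 3 cells held 55.3% (54.8 to 55.7) of 49912 UMIs of the 10 genes, and in mdx5cv diaphragm 7 cells held 67.0% (66.8 to 67.3) of 118409. The B cells, 257 and 516 in number, held 36.4% and 23.6%, and barcodes under 1000 UMIs 4.498% and 4.006%. The 21 and 15 cells of B-like clusters below the B cell threshold held 1.53% and 0.345%. All remaining cells held 1.20% and 3.24%. The genes were divided differently. Jchain lay to 95.5% and 95.2% in plasma cells, Igkc to 59.4% and 71.4%, and Ighm to 47.5% and 60.6%, whereas Ighd had no UMI in plasma cells and lay to 78.5% and 86.0% in B cells. Lambda UMIs lay mostly in B cells: for Iglc1 86.2% and 78.9%, for Iglc2 83.5% and 81.1%, and for Iglc3 83.9% and 62.0%. Of 1641 Igha UMIs in mdx5cv diaphragm, 93.7% lay in the single plasma cell named above.

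B cells were a diaphragm population. They made up 3.42% (3.02 to 3.86) of cells in WT diaphragm and 6.97% (6.40 to 7.57) in mdx5cv diaphragm, against 13 and 21 cells in WT and mdx5cv quadriceps. Of the diaphragm B cells, 248 of 257 and 498 of 516 also lay in a B-like cluster, and so did all 13 of WT quadriceps. In mdx5cv quadriceps only 10 of the 21 did. Of the other 11 there, 8 lay in macrophage-like clusters, and 9 had no light chain UMI at all, so that the counts of that library describe B cells poorly. At the threshold, 15 WT and 24 mdx5cv diaphragm cells had exactly 3 UMIs of the B genes, and 16 and 42 had exactly 2 and were left out.

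Nearly all B cells used the unswitched heavy chain genes. A class was called where 1 group (Ighm with Ighd, Igha, the 4 Ighg genes together, or Ighe) had at least 3 UMIs and at least 2 times all the others. In WT diaphragm 215 of 218 called cells were unswitched (98.6%, exact binomial interval 96.0 to 99.7) and 3 had IgG. In mdx5cv diaphragm 479 of 484 were unswitched (99.0%, 97.6 to 99.7), 2 had IgA, 2 had IgG and 1 held both Ighm and Ighg2b. The intervals of the 2 libraries overlapped. Ighe had no UMI in any library. In quadriceps 10 of 11 called cells were unswitched in WT, with 1 IgG cell, and 14 of 14 in mdx5cv.

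Each switched cell was read from few UMIs. The IgG cells of WT diaphragm held 17 Ighg3 UMIs and 1 of Ighg2b, 2 Ighg2b and 1 Ighg2c, and 3 Ighg2b, the last in a FAP-like cluster. Those of mdx5cv diaphragm held 15 Ighg2b and 2 Ighg2c, and 3 Ighg2b UMIs. The IgA cells of mdx5cv diaphragm held 7 and 22 Igha UMIs, and the IgG cell of WT quadriceps 8 of Ighg2b. None of these held an Ighm UMI, and all held 13 to 124 Igkc UMIs. The cell with both classes, in a macrophage-like cluster, held 4 Ighm and 3 Ighg2b UMIs.

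IgD transcript was found in a larger share of mdx5cv than of WT diaphragm B cells, with intervals that overlapped. Ighm and Ighd were found together in 91 of 257 B cells of WT diaphragm (35.4%, 29.6 to 41.6) and in 233 of 516 of mdx5cv diaphragm (45.2%, 40.8 to 49.6). With every cell thinned to 1000 UMIs, which left out no B cell, the shares were 16.3% (12.0 to 21.4) and 21.9% (18.4 to 25.7). Median depths were 2884 and 3146 UMIs. An Ighm UMI was found in 96.5% and 97.3% of B cells, against 0.816% and 4.12% of FAP-like cells, which should lack it and had median depths of 4514 and 4956 UMIs. For Ighd the FAP-like shares were 0.0490% and 0.0966%.

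B cells with and without an Ighd UMI differed in genes of the follicular and B-1 lists. A gene was called where the ratio was at least 1.5-fold and its interval did not contain 1, among genes with at least 5 CPM (UMIs scaled to the same total in each library) in either set. In WT diaphragm 2 of 7 follicular genes were called higher in Ighd-positive cells, against 2.95% of 10407 genes tested, and in mdx5cv diaphragm 5 of 7, against 3.96% of 9793. Of 8 B-1 genes 7 were tested and 3 (Bhlhe41, Itgam and Plscr1) were called lower in Ighd-positive cells of each library, against 1.62% and 6.01% of all genes. No gene of either list was called the other way. Fcer2a, the low-affinity IgE receptor CD23 of follicular B cells, had a level 3.20-fold (1.94 to 5.39) as high in Ighd-positive as in other cells of WT diaphragm, and 4.59-fold (3.55 to 5.998) in mdx5cv diaphragm. For Cr2, the complement receptor CD21, the ratios were 2.85-fold (1.28 to 6.54) and 3.53-fold (2.58 to 4.87). Cells without Ighd had the higher level of Bhlhe41, a B-1 cell transcription factor, with ratios of 5.64 (1.77 to 28.7) in WT and 1.93 (1.12 to 3.45) in mdx5cv. For Itgam, the integrin CD11b, those ratios were 4.97 (1.80 to 19.1) and 2.05 (1.28 to 3.41). Both genes are also found in other classes. Itgam was at 49.1 and 47.8 CPM in B cells, against 357 in macrophage-like cells of WT and 425 in monocyte-like cells of mdx5cv diaphragm. Bhlhe41 was at 47.5 CPM in FAP-like and 36.1 in B cells of mdx5cv diaphragm. The part of RNA of other cells in these ratios was not tested. Ighm itself was 1.31-fold (1.19 to 1.43) and 1.24-fold (1.17 to 1.31) higher without Ighd. The Ighd-positive cells were shallower, with median depths of 2390 against 3096 UMIs in WT and 2836 against 3432 in mdx5cv.

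Light chain use was mostly kappa in both diaphragm libraries. A chain was called at 3 UMIs and at least 2 times the other. In WT diaphragm 222 of 257 B cells were kappa (86.4%, 81.6 to 90.3), 21 lambda (8.17%, 5.13 to 12.2) and 14 mixed. In mdx5cv diaphragm 408 of 505 called cells were kappa (80.8%, 77.1 to 84.1), 48 lambda (9.50%, 7.09 to 12.4) and 49 mixed, and 11 were not called. For kappa and for lambda the intervals of the genotypes overlapped. In quadriceps the counts were 11 kappa, no lambda and 2 mixed in WT, and 8, 2 and 2 in mdx5cv.

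**Figure D2:**
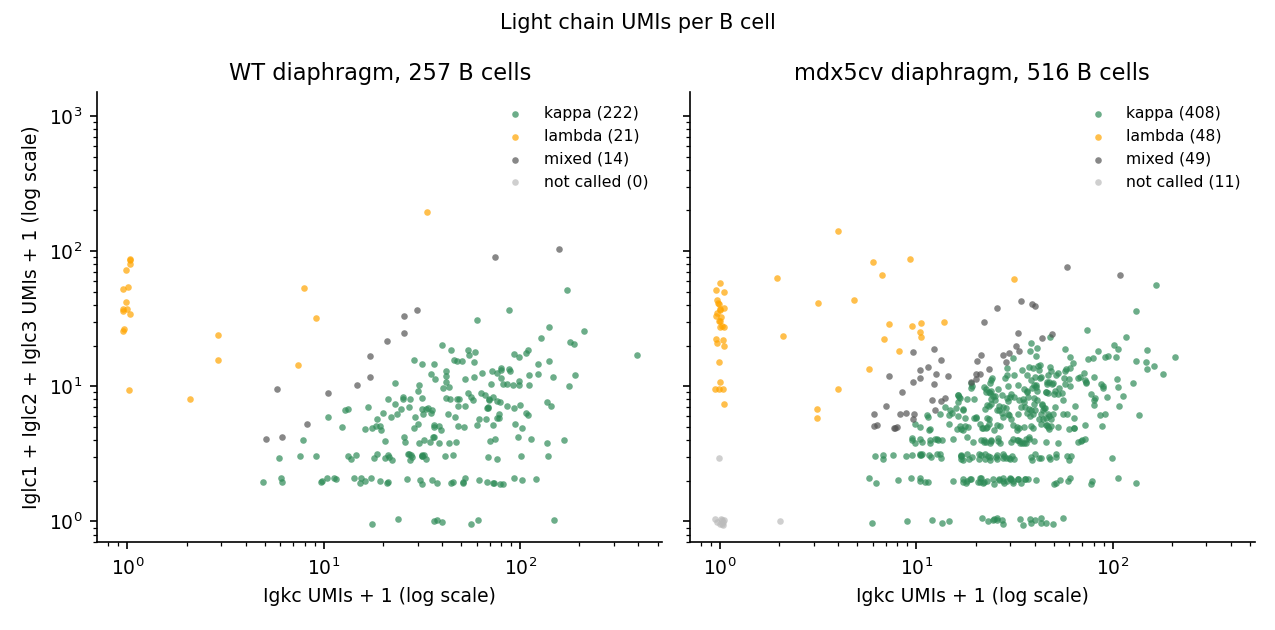
UMIs of Igkc (horizontal) and of the summed lambda genes (vertical) in each B cell of WT and mdx5cv diaphragm, both plus 1 on log axes and slightly jittered, coloured by the light chain called. Most cells lie in the kappa cloud with a few lambda UMIs, and most of the 21 and 48 lambda cells stand at the left with Igkc at or near 0. Igkc reaches 32 UMIs in a lambda cell of WT and 29 in a lambda cell of mdx5cv.

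Lambda cells held little Igkc, whereas kappa cells often held a few lambda UMIs. In lambda cells the median Igkc count was 0, and 33.3% (WT) and 43.8% (mdx5cv) had an Igkc UMI. Of kappa cells, 84.2% and 85.5% had an Iglc2 UMI, with medians of 2 and 3 UMIs. An Iglc3 UMI was found in 71.2% and 65.4% of them, and an Iglc1 UMI in 41.4% and 35.8%. An Iglc2 UMI was found in 0.111% of the 7235 cells of WT diaphragm that were neither B nor plasma, and in 0.350% of the 6864 of mdx5cv diaphragm. An Iglc2 UMI was thus far more frequent in kappa cells than in cells of the library that were neither B nor plasma. Kappa cells held medians of 43 Igkc UMIs in WT and 30.5 in mdx5cv diaphragm.

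Among lambda cells the leading gene was Iglc1 in 9, Iglc2 in 8 and Iglc3 in 4 in WT diaphragm. In mdx5cv diaphragm it was Iglc1 in 17, Iglc2 in 25 and Iglc3 in 6. The leading gene held medians of 29, 37 and 21.5 UMIs in WT and 23, 25 and 16 in mdx5cv cells, in the same order. In the 9 WT cells led by Iglc1 there were 469 Iglc1, 68 Iglc2 and 30 Iglc3 UMIs. In the 8 led by Iglc2 there were 12, 286 and 49, and in the 4 led by Iglc3 0, 15 and 82. The grouping fixes which gene leads in each set, so these sums do not show how well the counting tells Iglc2 from Iglc3.

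Levels in B cells were compared as CPM, the UMIs of a gene summed over the B cells of a library and scaled to the same total in each library. They are given for quadriceps and then diaphragm of WT, followed by quadriceps and then diaphragm of mdx5cv, and the quadriceps values rest on 13 and 21 cells. Ighm was at 1946, 2528, 998 and 2960 CPM, and Ighd at 537, 167, 171 and 237. Igkc was at 22315, 14431, 1618 and 8601. Both genes of the unswitched receptor were thus higher in mdx5cv than in WT diaphragm, and Igkc lower.

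The lambda genes followed Igkc in direction within diaphragm. Iglc1 was at 705, 1015, 135 and 616 CPM, Iglc2 at 2684, 1477, 342 and 1258, and Iglc3 at 1711, 638, 243 and 494. Jchain was at 134 (4 UMIs in 1 cell), 3.35, 0 and 11.2 CPM. Igha was at 0, 5.58, 0 and 20.8, Ighg2b at 268, 7.81, 8.99 and 16.8, and Ighg2c at 0, 1.12, 0 and 1.02.

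A gene was called different between mdx5cv and WT diaphragm B cells where the ratio reached 1.5-fold and its interval left out 1, among genes with at least 5 CPM in either library. Of 10118 genes tested, 19.6% were called, 10.4% higher and 9.27% lower in mdx5cv. Of the 10 genes, 9 reached 5 CPM, and 2 were called higher and 2 lower. Their median log2 ratio was 0.23, against 0.08 over all genes tested.

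Igkc was 1.68-fold (1.64 to 1.72) lower in mdx5cv diaphragm, from 12937 UMIs in WT and 16931 in mdx5cv B cells, and Iglc1 1.65-fold (1.51 to 1.80) lower. The order was the same per cell, where Igkc had a median of 136 UMIs per 10000 (quartiles 59.8 and 252) in WT and 87.2 (44.8 and 141) in mdx5cv B cells, and 161 against 105 in kappa cells. Iglc2 was 1.17-fold (1.10 to 1.26) and Iglc3 1.29-fold (1.16 to 1.43) lower, both short of the 1.5-fold threshold. With a threshold of 2-fold neither Igkc nor Iglc1 would be called.

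Ighm was 1.17-fold (1.12 to 1.23) and Ighd 1.42-fold (1.18 to 1.71) higher in mdx5cv, with intervals that exclude 1 but below 1.5-fold. Per cell, Ighm had a median of 23.4 UMIs per 10000 (11.4 and 37.1) in WT and 30.2 (17.0 and 44.6) in mdx5cv B cells, and the quartile ranges overlapped. Ighm and Ighd thus lay above 1 in this ratio, and all 4 light chain genes below it.

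Igha was 3.74-fold (1.48 to 12.1) higher, from 5 UMIs against 41, and Jchain 3.34-fold (1.003 to 17.4), from 3 against 22. In mdx5cv 22 of the Igha UMIs and 11 of the Jchain UMIs came from 1 cell each. Without the cell richest in Igha and the one richest in Jchain in each library, neither was called, and Igha stood at 2.18-fold (0.724 to 8.80). Ighg2b was 2.15-fold (0.934 to 5.75) and was not called. Ighg2c, with 1 and 2 UMIs, was not tested.

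**Figure D3:**
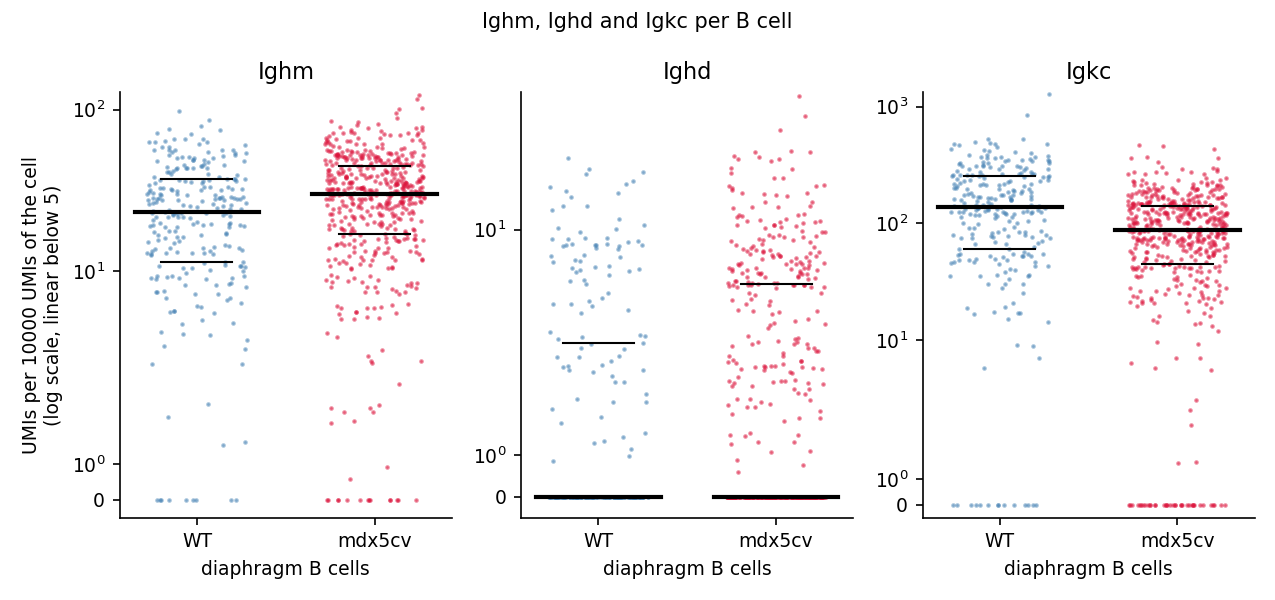
UMIs per 10000 UMIs of the cell (log axis, linear below 5) of Ighm, Ighd and Igkc in 257 WT and 516 mdx5cv diaphragm B cells, 1 point a cell, with the median (thick line) and quartiles (thin lines). The Ighm median is higher in mdx5cv (30.2 against 23.4), the Igkc median lower (87.2 against 136), and the Ighd median is 0 in both.

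**Figure D4:**
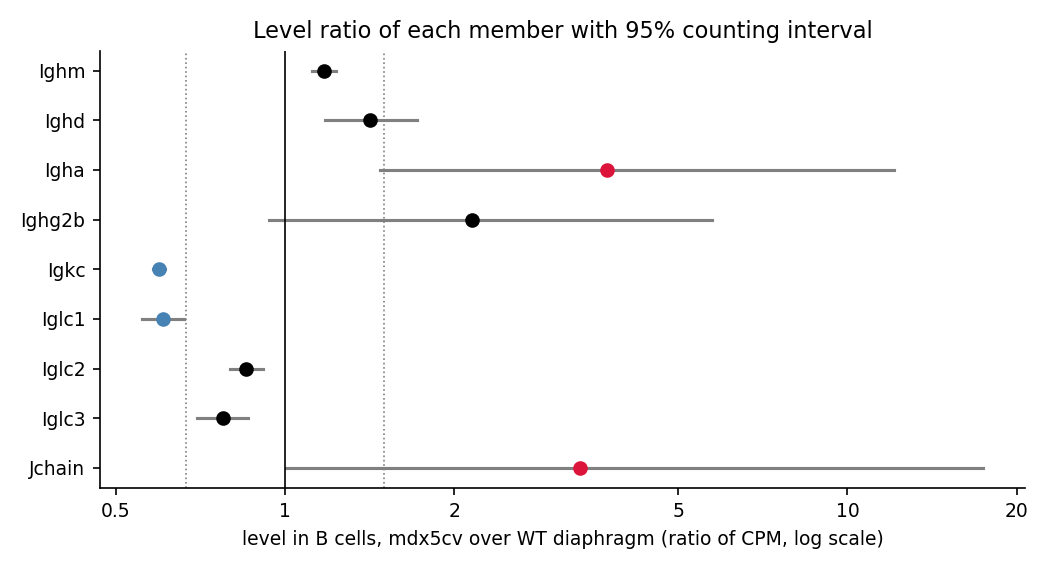
Ratio of CPM in B cells, mdx5cv over WT diaphragm (log axis), for the 9 genes tested, with 95% counting intervals; red and blue mark genes called higher and lower, and dotted lines mark 1.5-fold. Igkc and Iglc1 lie below the lower line, and the intervals of Igha and Jchain are wide.

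Markers of other classes differed in level between the 2 sets of B cells, and whether their UMIs came from other cells was not tested. Over 6 markers of FAPs, all with a UMI in both, the summed level in B cells was 9714 CPM in WT and 4311 in mdx5cv diaphragm. Over 6 macrophage markers, again all with a UMI, it was 358 and 975 CPM, and over 6 monocyte markers 756 and 813 CPM, with Chil3 and Ly6i at 0 in WT and Ly6i at 0 in mdx5cv. T cell markers were at 31.2 and 23.4 CPM and endothelial markers at 46.8 and 97.0. Their part in the level differences was not tested. Restricted to B cells in the B-like cluster, Igkc and Iglc1 were still called lower, and Ighd (1.53-fold) and Ighg2b (3.43-fold) were called higher beside Igha and Jchain.

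Other genes of the pathway were read from lists. Of 12 genes of the B cell receptor complex and its coreceptors, all tested, 3 were called higher in mdx5cv B cells and 1 lower. Cd22, an inhibitory coreceptor, was at 58.0 CPM in WT and 183 in mdx5cv (3.16-fold, 2.36 to 4.31). Cr2 was at 32.4 and 103 CPM (3.17-fold, 2.14 to 4.86), and Syk, the kinase downstream of the receptor, at 150 and 340 (2.28-fold, 1.89 to 2.76). Cd81, a tetraspanin of the coreceptor complex, was at 465 and 273 (1.70-fold lower, 1.49 to 1.94). Cd79a, at 1389 and 1708 CPM, and Cd79b, at 781 and 907, the most abundant of the list, were not called.

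Of 12 Ig and Fc receptor genes 10 were tested, of which 6 were called higher and 1 lower. Fcer2a was at 78.1 and 168 CPM (2.15-fold, 1.65 to 2.82), and Fcgr2b, an inhibitory IgG receptor of B and myeloid cells, at 64.7 and 135 (2.09-fold, 1.57 to 2.83), below the 326 CPM of macrophage-like cells of mdx5cv diaphragm. Fcer1g, the signalling chain of activating Fc receptors, was at 79.2 and 444 CPM (5.61-fold, 4.40 to 7.25), and reached 4425 CPM in monocyte-like cells of mdx5cv diaphragm. Fcgr1, with 1 and 67 UMIs, Fcgr3, with 18 and 96, and Fcgr4, with 1 and 15, were also highest in monocyte-like or macrophage-like cells, whose markers are given above. Fcgrt, the neonatal Fc receptor, was 1.55-fold (1.10 to 2.18) lower. Fcmr, the receptor of IgM, was at 301 and 209 CPM and Pigr, which carries polymeric Ig across epithelia, at 4.46 and 5.08, and neither was called.

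Of 8 germinal centre and class switch genes 7 were tested and 2 were called higher: Rgs13, a regulator of G protein signalling in germinal centre B cells, with 0 UMIs in WT and 19 in mdx5cv, and Mki67, a proliferation gene, at 11.2 and 25.4 CPM (2.28-fold, 1.14 to 5.04). Of 7 precursor genes only Vpreb3, at 53.5 and 83.8 CPM (1.57-fold, 1.13 to 2.21), was tested; Rag1, Rag2, Igll1, Dntt and Vpreb2 were at 0 UMIs in both. Of 7 follicular B genes Cr2, Fcer2a and Icosl (3.77-fold, 2.01 to 7.81) were called higher and Cd55 lower (1.61-fold, 1.34 to 1.94). Of 8 B-1 genes 7 were tested, with Spn called higher from 1 against 24 UMIs and Cd9 (2.75-fold, 2.33 to 3.24), Plscr1 (2.02-fold, 1.56 to 2.62) and Anxa2 (1.91-fold, 1.69 to 2.16) called lower. In mdx5cv diaphragm Syk, Mki67, Icosl, Spn, Cd81, Cd9 and Anxa2 were each higher in another class than in B cells. Median log2 ratios were 0.29 for the receptor complex, 1.15 for the Fc receptors, 0.58 for the germinal centre list, 0.65 for the single precursor gene, 0.25 for the follicular and -0.35 for the B-1 list.

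Secretory genes were compared between genotypes in B cells and between plasma and B cells. Of 14 such genes 12 were tested in B cells and 1 was called, Irf4, a transcription factor of activated B and plasma cells, at 74.7 and 180 CPM (2.41-fold, 1.85 to 3.18). The list median was 0.00 on the log2 scale. In plasma cells of mdx5cv diaphragm, per UMI other than Ig, Derl3 was 114-fold (62.7 to 217), Xbp1 41.9-fold (33.2 to 52.8) and Mzb1 24.1-fold (21.1 to 27.4) above B cells. Irf4 was not, at 1.68-fold (0.829 to 3.03). The intervals do not cover the spread between plasma cells. Cell 2 alone held 20 of the 36 Derl3, 33 of the 134 Xbp1 and 174 of the 331 Mzb1 UMIs. In the other mdx5cv plasma cells Derl3 ran from 1 to 8, Xbp1 from 8 to 26 and Mzb1 from 0 to 46 UMIs. Of 7 factors that other cells make for plasma and B cells 4 were tested, and Cxcl13, a B cell chemokine, was called lower, with 12 UMIs in WT and 0 in mdx5cv B cells. Of 4 other Ig constant genes 1 was tested, Ighg3, at 21.2 and 24.9 CPM, and not called. In WT 17 of its 19 UMIs lay in 1 cell, whereas in mdx5cv 49 UMIs lay in 26 cells. An Ighg3 UMI was thus found in 1.17% (0.241 to 3.37) of WT and 5.04% (3.32 to 7.30) of mdx5cv B cells.

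Outside B and plasma cells the light and heavy chain genes spread differently. The classes were grouped, after their values had been seen, into leucocytes (macrophage-, monocyte-, dendritic-, T-, NK-, innate lymphoid- and neutrophil-like cells and a cluster led by Cd209a) and stromal classes (FAP-, endothelial-, mural-, muscle stem cell-, tenocyte-, mesothelial- and Schwann-like cells). Values are in the same order of libraries as for the B cells. Igkc was at 1.62, 12.8, 0.491 and 16.2 CPM in leucocytes and at 0.462, 5.20, 0.214 and 11.0 in stromal classes. In droplets of 10 to 100 UMIs, which stand for the free RNA, it was at 103, 607, 38.8 and 1204 CPM. The libraries stood in the same order in cells as in droplets, with mdx5cv diaphragm highest and mdx5cv quadriceps lowest, but the quadriceps values of cells rest on 3 to 18 UMIs and do not differ beyond counting error.

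Most Igkc UMIs of the quadriceps droplets lay in shared barcodes. Without the barcodes that were cells in another library, Igkc in droplets was at 29.97 (19.6 to 43.9), 572 (525 to 622), 4.26 (1.16 to 10.9) and 1211 (1148 to 1278) CPM. Those barcodes were 4.77% of the WT quadriceps droplets and held 72.0% of their Igkc UMIs. In mdx5cv quadriceps they were 1.60% of the droplets and held 33 of 37 Igkc UMIs, all 3 Igha UMIs and both Jchain UMIs. In the diaphragm libraries they held 10.2% and 2.09% of droplet Igkc. Without shared barcodes, the droplets of mdx5cv quadriceps lay below its T-like cells, at 15.1 CPM (7.22 to 27.7), with overlapping intervals.

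Ighm did not follow the droplets. It was at 154 (137 to 173), 102 (90.6 to 114), 165 (161 to 169) and 152 (146 to 158) CPM in leucocytes, whereas droplets held 33.3, 120, 98.6 and 331 CPM. Without shared barcodes the droplets held 18.4, 110, 88.3 and 334.5 CPM. In stromal classes Ighm was at 4.06, 2.10, 23.1 and 11.0 CPM. There were 95.3, 7.97, 335 and 9.37 Ighm UMIs per Igkc UMI in leucocytes, against 0.323, 0.198, 2.54 and 0.275 in droplets and 0.0872, 0.175, 0.617 and 0.344 in B cells. The quadriceps ratios of leucocytes rest on 3 and 18 Igkc UMIs, with intervals of 32.3 to 465 and 212 to 566. Without shared barcodes, quadriceps droplets held 16 Ighm and 26 Igkc UMIs in WT, and 83 and 4 in mdx5cv. Where the Ighm UMIs of leucocytes come from was not tested.

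Macrophage-like cells carried Ighm in all 4 libraries, at 167 (144 to 193), 127 (106 to 151), 153 (148 to 158) and 148 (141 to 156) CPM. An Ighm UMI was found in 40.6%, 41.3%, 45.04% and 46.4% of them, at median depths of 3389, 4693, 6125 and 6323 UMIs. FAP-like cells of similar depth (3466, 4514, 5597 and 4956 UMIs) had one in 2.29%, 0.816%, 8.76% and 4.12%. Among macrophage-like cells with no UMI of Igkc, Cd79a, Cd79b or Ms4a1, Ighm was at 156, 120, 149 and 146 CPM, and without the highest 6% of doublet scores at 176, 127, 154 and 149. Igkc was at 1.82, 2.84, 0.188 and 15.2 CPM in all macrophage-like cells, and Ighd at 2.74, 0, 0.489 and 0.357.

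**Figure D5:**
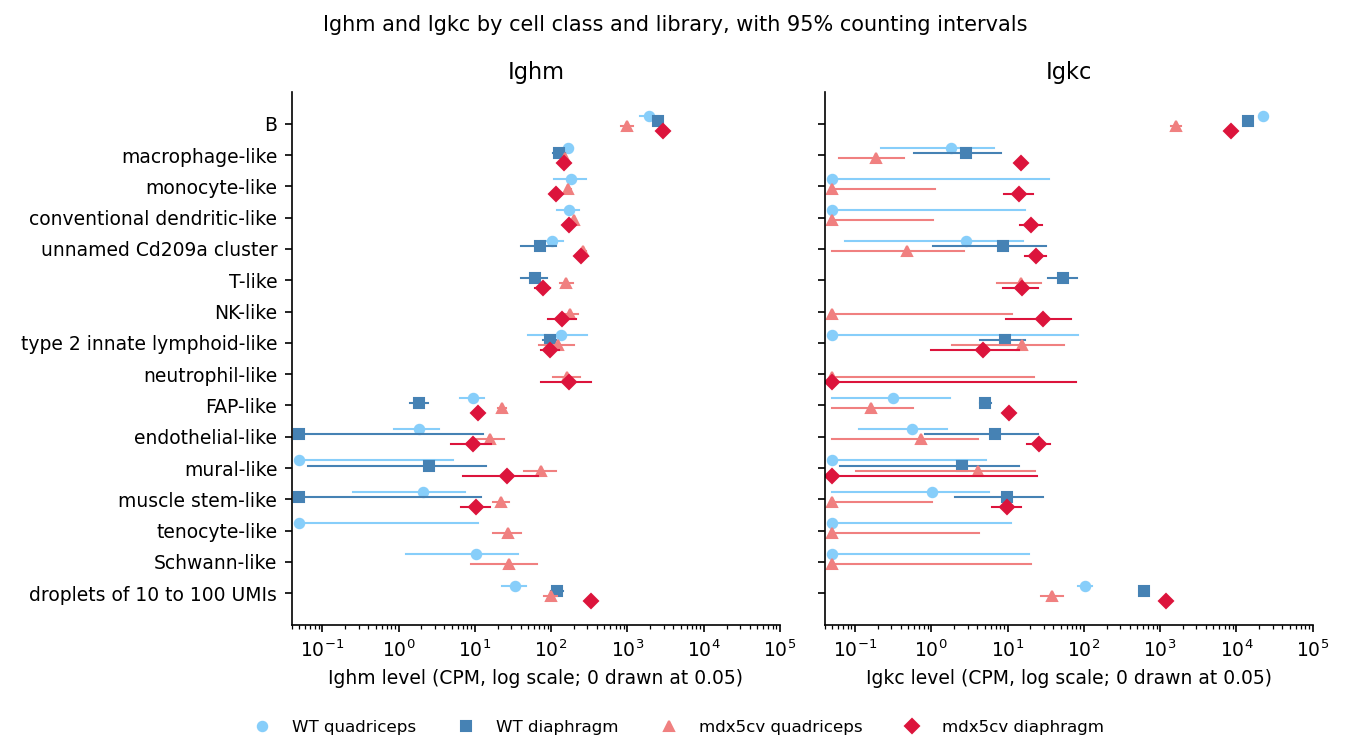
CPM of Ighm (left) and Igkc (right) by cell class and library with 95% counting intervals on log axes, where 0 is drawn at 0.05. Plasma cells, mesothelial-like cells and, apart from B cells, classes with few cells in a library are not drawn. Ighm in macrophage-, monocyte- and dendritic-like cells runs from 116 to 197 CPM, above the stromal classes drawn, of which mural-like cells of mdx5cv quadriceps are highest at 74.3 CPM (44.1 to 118). In both diaphragm libraries Igkc of the drawn classes other than B cells lies below the droplets, drawn here with shared barcodes.

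Most Ighm UMIs of quadriceps lay outside B cells. Of 478 Ighm UMIs in WT quadriceps 69.0% were in cells that were neither B nor plasma, and of 7101 in mdx5cv quadriceps 91.1%, against 6.23% of 5903 in WT and 11.7% of 25989 in mdx5cv diaphragm. In mdx5cv diaphragm the order of the classes for Ighm ran from plasma cells and B cells to the Cd209a cluster at 250 CPM. The dendritic-like cells at 170 and the macrophage-like cells at 148 came below it. The interval of the Cd209a cluster (227 to 274) was clear of those of the latter pair, but not of the 20 neutrophil-like cells, at 170 CPM (73.4 to 335). T-like cells were lower, at 77.2 CPM in mdx5cv and 61.2 in WT diaphragm. The place of the Cd209a cluster did not hold in WT diaphragm, where it was at 70.8 CPM (40.5 to 115) from 16 UMIs. Macrophage-like cells there were at 127 CPM (106 to 151), with intervals that overlapped. Summed over all cells that were neither B nor plasma, Jchain was at most 0.835 CPM in a diaphragm library, with single classes of mdx5cv diaphragm up to 1.63 CPM (dendritic-like, 0.335 to 4.75), against 28.02 and 85.9 CPM in their droplets.

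The genes whose levels across classes were most like those of 3 members were looked for by Pearson's correlation of log levels over 51 sums of at least 20 cells of 1 class in 1 library, among 16657 genes. The sums share libraries and cells' free RNA, so the values describe likeness only. For Ighm the leading genes were Dock2 (0.902), A630001G21Rik, Ikzf1, Cd37 and Stap1 (0.890), and for Igkc they included Gm30211 (0.880), Vpreb3, Fcmr and Pou2af1 (0.869). For Jchain they included Cacna1i (0.833), Cdh17, Pigr and 4930426D05Rik (0.796). The plasma cells, 3 and 7 in number, were too few for a sum and were left out. The Jchain ranking therefore rests on trace levels, such as 11.2 CPM in B cells of mdx5cv diaphragm and 3.35 CPM in those of WT diaphragm.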

How the data were processed

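The deposited unfiltered matrices hold raw UMI counts per gene and barcode, which the authors made with Cell Ranger 5.0.0 on mm10 per the submitters' processing notes. The header of each matrix gives Cell Ranger 4 instead. The annotation and whether strand was used are not given in the sources used here. Library totals were 18837891, 40226833, 62780685 and 49612759 UMIs, WT before mdx5cv and quadriceps before diaphragm.

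The computation used scanpy 1.11.5, leidenalg 0.10.2, scipy 1.17.1, numpy 2.4.6 and pandas 2.3.3 in Python 3.11.15. Cells were clustered together on 2000 variable genes without Ig genes, 30 principal components, 15 neighbours and Leiden resolution 1.0. Doublets were kept, since Scrublet's own threshold called 3, 1, 4 and 328 cells and so had not worked in 3 libraries; removal of the highest 6% of scores was an alternative.

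Ratios of CPM have exact conditional intervals, levels exact Poisson and shares exact (Clopper-Pearson) binomial intervals. With 1 library a group no test was made. Recovery of known ratios was tested on simulated data.

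The members, lists and rules were chosen with earlier results of these data known. Named were all members, the leading variable gene of each plasma cell, and list genes that were called or among the highest 2 of their list; others, such as Fcmr, Pigr and genes at 0 UMIs, were chosen after their values were seen. Some genes of the lists and of the likeness ranking are not reported here. Alternatives changed gates, call rules, depth, doublets, droplet ranges and classes.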

Additional observations from a re-analysis of the deposited data

Results flagged for a closer look

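Barcodes under 1000 UMIs, which none of the comparisons used, held IgG-rich droplets in mdx5cv diaphragm. Taking barcodes with at least 20 UMIs of the 10 genes making up at least 25% of their UMIs, a rule chosen after the data were seen, 7 were found in mdx5cv diaphragm, 2 in WT diaphragm, 1 in WT quadriceps and none in mdx5cv quadriceps. In mdx5cv diaphragm 5 of the 7 had IgG as the heavy chain and none of those in the WT libraries did. Of these 5, 4 held 37, 20, 19 and 11 Ighg2b UMIs beside 206, 77, 56 and 32 Igkc UMIs, in barcodes of 326, 137, 99 and 59 UMIs, and 1 held 14 Ighg2c and 16 Igkc UMIs among 58. All 5 had 0 UMIs of Ighm. They held 87 of the 102 Ighg2b UMIs and 14 of the 24 Ighg2c UMIs found under 1000 UMIs in that library, and Jchain reached at most 2 UMIs in them. None of the 5 was at a plasma or B cell barcode of another library. The barcode of WT quadriceps and 1 of the 2 of WT diaphragm were at plasma cell barcodes of mdx5cv diaphragm. Whether the 5 were cells of low RNA recovery was not tested.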

How the results depend on the processing

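No paired analysis was possible because the labels carry no replicate numbers and each group is 1 library. Of the values recomputed for the main comparisons, 71 kept their size and 25 moved. The plasma cell number of WT diaphragm became 18 when Ig genes at 5% of UMIs defined the cells, and 0 in both diaphragm libraries when the highest 6% of doublet scores were removed. In mdx5cv diaphragm the unswitched share became 96.1% with a 9-fold call and 100% with a 5% mitochondrial limit, and the lambda share 6.93% and 0%. The mitochondrial limit left 37 and 36 called cells, with intervals (90.5 to 100, and 0 to 9.74) that hold the main values. Members called higher, Igha and Jchain, became 1 with CPM over UMIs other than Ig and without high doublet scores (Igha) and with thinning (Ighd), 3 with a gate of 5 UMIs (Ighd, Igha and Ighg2b), 4 within the B-like cluster and 0 without the cells richest in Igha and Jchain. Members called lower became 0 at 2-fold. Of single members' calls, 58 stayed, 5 were gained and 9 lost. The genes called among all tested were 1986, against 781 with thinning, 1339 at 2-fold and 1467 without high doublet scores, where 63.1% of calls were higher, against 52.8%.

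In percent of the droplet level, Igkc in cells neither B nor plasma of WT diaphragm was 0.966%. It became 0.812% in cells with no UMI of the B genes, 1.55% with droplets of 1 to 9 UMIs, 1.52% with 50 to 200 and 1.85% with classes from markers. Ighm there was 9.04%, and 12.7%, 13.0% and 12.1% under the latter 3. In mdx5cv diaphragm Igkc was 1.10%, and 2.27% with 1 to 9 UMIs and 1.68% with marker classes. Ighm was 21.9%, and 30.1%, 58.9% and 32.7% with 1 to 9 UMIs, 50 to 200 UMIs and marker classes. The causes were not tested. Droplets without shared barcodes and the macrophage-like cells without high doublet scores or without B cell UMIs were added after the data were seen, as were the B-like cluster and the left-out cells. Depth limits class calls to cells with 3 heavy chain UMIs.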

Other observations

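A few cells of a Cd209a cluster held Iglc3 in the mdx5cv libraries. In the unnamed cluster led by Cd209a and Clec10a, 45 Iglc3 UMIs lay in 12 of 419 cells of mdx5cv quadriceps, with up to 11 in 1 cell, and 54 in 11 of 304 cells of mdx5cv diaphragm, with up to 10. In WT the cluster held no Iglc3 UMI in 74 and 37 cells. These are few: the interval in WT quadriceps reached 4.86% of cells, above the 2.86% found in mdx5cv quadriceps. The cluster also held 2 Cd79a and 15 Cd79b UMIs in mdx5cv quadriceps, and 2 Cd79a, 14 Cd79b and 5 Ms4a1 UMIs in mdx5cv diaphragm. Whether they lay in the same cells as Iglc3 was not tested. Its Iglc3 level in mdx5cv diaphragm was 29.9 CPM (22.4 to 39.0), against 17.4 CPM in the droplets of that library and 2.49 CPM in macrophage-like cells. Single cells rich in Iglc3 were found in other classes too. In mdx5cv diaphragm 28 UMIs lay in 8 macrophage-like cells, with up to 12 in 1 cell, and 8 in 2 dendritic-like cells. In mdx5cv quadriceps 17 lay in 5 macrophage-like cells, with up to 6. Of all 107 Iglc3 UMIs of mdx5cv quadriceps, 63.6% lay in cells that were neither B nor plasma. Ighg2c showed a like case in mdx5cv diaphragm, where 13 of 39 UMIs lay in 5 cells that were neither B nor plasma, 7 of them in 1 cell.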
